A study of Mus musculus with 6 samples.

Results

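Aminoacyl-tRNA synthetases are the enzymes that attach each amino acid to its transfer RNA. The genes were taken as every row of the deposited table whose mouse symbol is a synthetase name of the form Aars or Aars2, together with Eprs, Farsa and Farsb, which gave 37 of the 28738 genes in the table. Of these, 20 encode the cytosolic enzymes, and 17, whose names end in 2, encode the mitochondrial ones. All 37 passed the filter on low values (the deposited log2 value, put back on the linear scale, reached 10 in 3 or more of the 6 libraries), as did 17450 genes in all. The rule uses names only.

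The libraries were made from fully-grown germinal vesicle oocytes, which are held in prophase of the first meiotic division. The control group had 3 libraries of genotype Control, and the knockout group had 3 libraries of genotype Uba3 cKO, a conditional knockout of Uba3. Both groups were of the strain labelled C57/Bl6/N;129SvEv7, and each library came from a pool of about 150 oocytes. UBA3 is the catalytic partner in the E1 enzyme for NEDD8, a small protein that is attached to cullins. No source used here gives the age of the mice, the allele or the Cre driver. Whether different animals gave the different pools is not stated in the labels, and p-values here reflect the spread between these pools, which may be technical.

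Translation in the cytosol and in mitochondria uses separate sets of transfer RNAs, and for most amino acids a separate nuclear gene encodes the enzyme of each compartment. Gars and Kars are known exceptions whose products serve both compartments, and Qars has no mitochondrial partner because glutaminyl-tRNA in mitochondria is made by an amidotransferase. Several cytosolic synthetases sit in the multisynthetase complex, held together by the scaffold proteins AIMP1, AIMP2 and EEF1E1. Synthetases fall into class I and class II by the fold of their catalytic domain. In other mouse cells, many cytosolic synthetase genes are known targets of ATF4, the transcription factor of the amino acid response, which binds elements with the core TGATGNAA.

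Promoter sequences of 300 bases, from 250 before to 50 after the annotated start, were found for 27 of the 37 genes in RefSeq's table for build GRCm38.p6, an earlier build than that of the files. The core TGATGNAA was searched for on both strands, where it reads TTNCATCA on the other strand. It was present in 5 of 13 cytosolic genes with a promoter in the table and in 0 of 14 mitochondrial genes. Of all genes in the promoter table, 4.51% held it. The window of 30 bases around the match nearest the start is shown for each gene because these letters set the 5 genes apart by sequence, independent of their values. The capitals mark the match, and each sequence reads 5′ to 3′ along the gene.
Aars: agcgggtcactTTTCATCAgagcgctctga
Gars: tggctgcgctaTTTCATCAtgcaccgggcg
Iars: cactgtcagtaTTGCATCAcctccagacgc
Tars: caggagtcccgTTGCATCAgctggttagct
Yars: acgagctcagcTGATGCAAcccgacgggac

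The window of Aars lay at chr8:111033840-111033869 on the plus strand, with the match 10 to 17 bases into the transcript. The window of Gars lay at chr6:55037960-55037989 on the plus strand, with the match 30 to 23 bases before the start. The window of Iars lay at chr13:49682126-49682155 on the plus strand, 8 to 15 bases into the transcript. The window of Tars lay at chr15:11399655-11399684 on the minus strand, 15 to 8 bases before the start. The window of Yars lay at chr4:129189895-129189924 on the plus strand, 4 to 11 bases into the transcript. A match describes the letters only and is not a measured binding site.

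The synthetase transcripts covered a wide range of levels in control oocytes. A level here is the linear value (2 to the power of the mean deposited log2 value of the control libraries) divided by the length of the longest annotated transcript in kilobases. Iars, the isoleucyl-tRNA synthetase of the cytosol, had the highest level, 2650 per kilobase. Qars (glutamine) followed at 2240, Farsb (the beta subunit of the phenylalanyl-tRNA synthetase) at 1850 and Nars (asparagine) at 1240. The control libraries of each of these 4 genes did not overlap with those of the next. Gars, Wars, Dars and Eprs came next, between 822 and 836 per kilobase, and differed from each other by less than their spread over the control libraries, since neighbours in the order overlapped. The lowest level was that of Mars2, the mitochondrial methionyl-tRNA synthetase, at 23.3 per kilobase, 114 times below that of Iars. This place depends on the division by its longest transcript, which has 11294 bases. Before division, its mean control log2 value was 8.04, near the mitochondrial median of 8.06, and the lowest value was that of Yars, 6.69. Of the 36 pairs of neighbours in the order, 24 had overlapping control libraries.

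Cytosolic genes were mostly the more abundant ones. Their median level was 486 per kilobase against 62 for the mitochondrial genes, a ratio of 7.84. Dividing by the length of all exons together in place of the longest transcript gave a ratio of 5.97. Among the mitochondrial genes, Rars2 (arginine) at 433 and Fars2 (phenylalanine) at 388 per kilobase stood above the rest, of which the highest was Lars2 (leucine) at 132. In 14 of 16 pairs of a cytosolic and a mitochondrial gene for the same amino acid, with Eprs paired with both Ears2 and Pars2, the cytosolic gene had the higher level. The ratio ran up to 52.7 for Iars over Iars2. The exceptions were Vars and Yars, the cytosolic enzymes for valine and tyrosine, at 0.391 and 0.373 times the level of Vars2 and Yars2. Phenylalanine, whose cytosolic enzyme needs both Farsa and Farsb, is not among the 16 pairs. There, Farsa at 338 per kilobase was below Fars2 at 388, and Farsb was above it. Over all its annotated exons, Aars shares 1326 exon bases with the neighbouring gene Exosc6 on the same strand, and their part in its level was not tested.

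**Figure D1:**
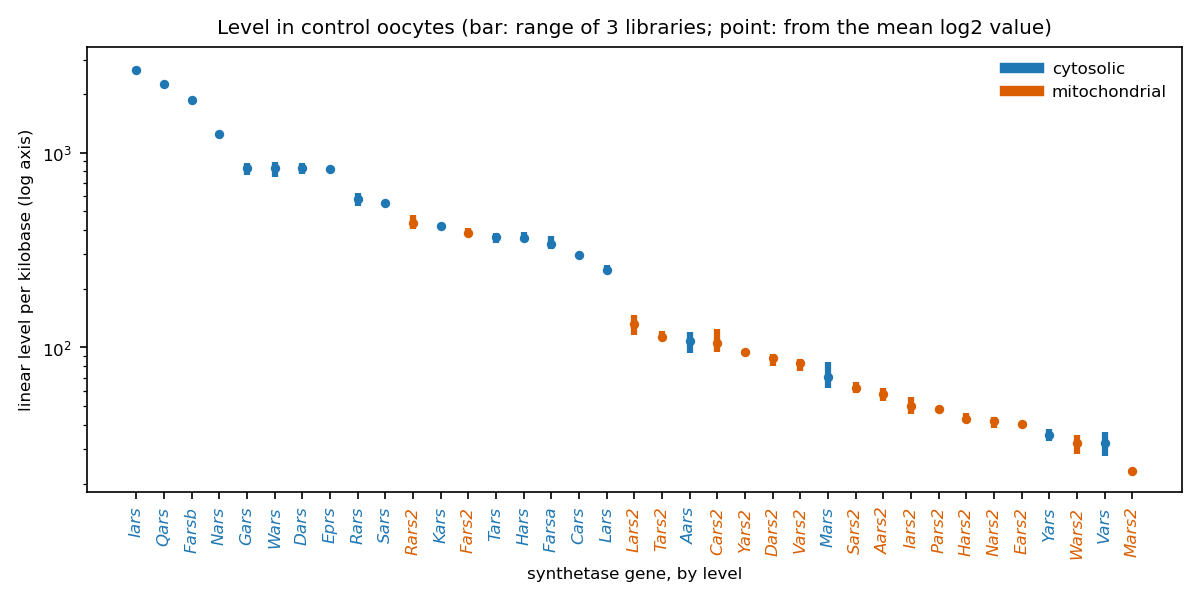
Level of each of the 37 synthetase genes in control oocytes, as linear value per kilobase of transcript on a log axis, ordered from highest to lowest. Points come from the mean log2 value, bars span the 3 control libraries, and blue marks cytosolic and orange mitochondrial genes. The 10 highest genes are cytosolic, and the mitochondrial Rars2 comes next at 433.

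The targeted gene, Uba3, had log2 values of 11.37, 11.46 and 11.34 in the control libraries (replicates 1, 2 and 3, the order used throughout) and of 10.03, 10.16 and 10.36 with Uba3 cKO. It fell by 1.21 (SE 0.10, adjusted p = 2.07e-05 in limma), and no library went against its label. In the comparison of Uba3 cKO with control oocytes, 1 of the 37 synthetase genes was called. Farsb fell by 0.30 on the log2 scale, and 36 genes were not called, 19 of them cytosolic and 17 mitochondrial. A gene was called at an adjusted p under 0.05 in limma, with Benjamini-Hochberg adjustment over the 17450 kept genes. Of all kept genes, 8.14% were called, with 5.64% rising and 2.50% falling in the knockout. The share of synthetases called was 2.70%, below that background. At an unadjusted limma p under 0.05 there were 7 synthetase genes (18.9%), against 22.8% of all kept genes.

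The intervals show how large a difference these libraries could still hold. The 95% interval of the log2 difference lay within ±1 for all 37 genes and within ±0.5 for 32 of them (86.5%, against 85.3% of all kept genes). The widest bounds were -0.56, for Cars2, and 0.55, for Aars.

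Small differences below 0 were more common than differences above 0. The log2 difference was below 0 for 29 of the 37 genes (78.4%), with a median of -0.07. Over all kept genes 51.8% were below 0, with a median of -0.01. Among the 10128 protein-coding genes in the same range of mean level, a background chosen after the values were seen, 52.4% were below 0, and 10.1% were called, 3.24% as lower. For the 20 cytosolic genes the median was -0.06 with 15 below 0, and for the 17 mitochondrial genes it was -0.10 with 14 below 0. The cytosolic median was -0.03 without control replicate 1 or without Uba3 cKO replicate 3, and without control replicate 2 the medians were -0.09 (cytosolic) and -0.08 (mitochondrial), in the opposite order. These counts describe the genes and carry no test. With libraries centred on their medians or quantile normalized, 29 of the 37 were again below 0, and leaving out single libraries gave 26 to 30.

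**Figure D2:**
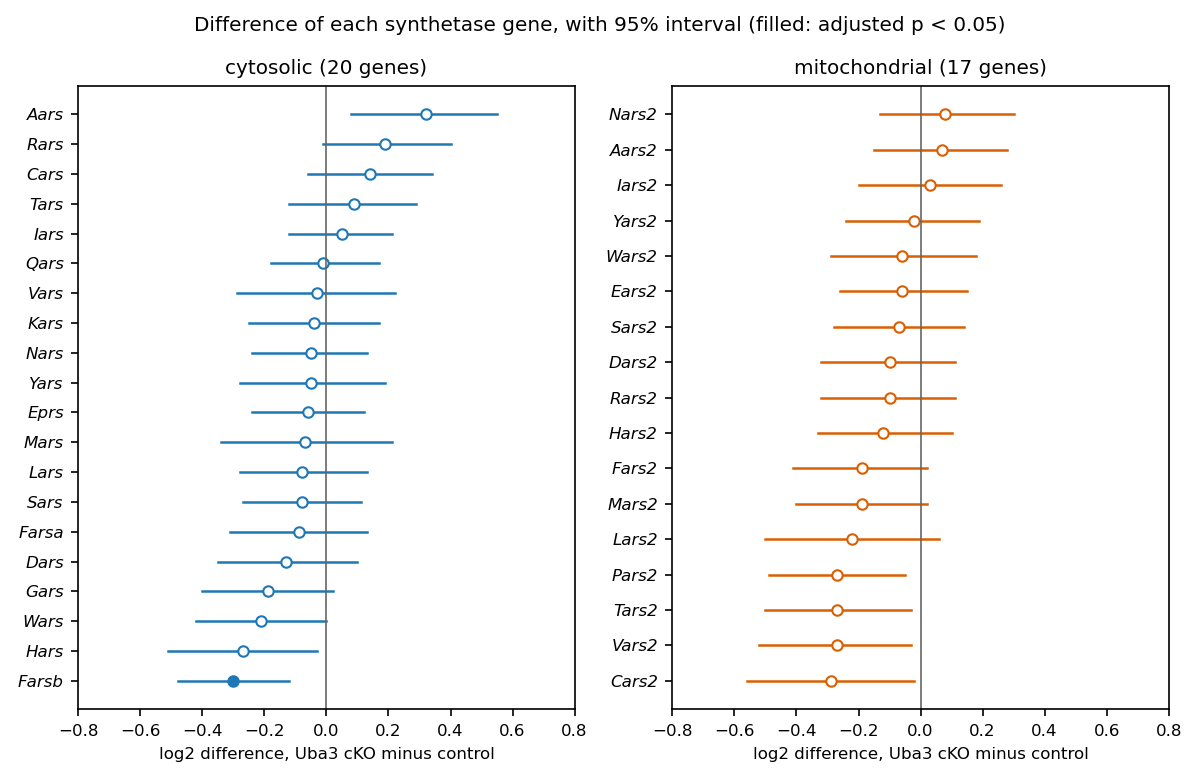
Log2 difference between Uba3 cKO and control for each synthetase gene, with its 95% interval from limma, cytosolic genes on the left and mitochondrial genes on the right. The filled point is the called gene, Farsb at -0.30, and the differences run from -0.30 to 0.32.

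All 15 oocyte markers were kept, with the oocyte growth factors Bmp15 at 17.05 and Gdf9 at 16.85 in control. Bmp15 and Zp2, a protein of the zona pellucida, were called lower (-0.25 and -0.30) and Dazl higher (0.40). Of the 15, 11 were below 0, with a median of -0.13. Over all kept genes 51.8% were below 0, and 8.14% were called. The log2 of the oocyte markers' summed level ran from 19.05 to 19.21 in control and from 18.88 to 19.04 in Uba3 cKO libraries, which nearly met. The mean deviation of these markers from their average over the 6 libraries was -0.03, 0.07 and 0.07 in control libraries. With Uba3 cKO it was 0.05, -0.14 and -0.02, so that the groups overlapped. Markers of theca, stroma and luteal cells moved with the groups. Of 12 kept, 6 were called lower, none higher and all 12 were below 0, and the log2 of their summed level ran from 11.83 to 12.48 in control and from 11.33 to 11.69 in Uba3 cKO libraries. Insl3, a theca hormone, was between 1.39 and 1.44 in every library. For 15 kept granulosa and cumulus markers the summed level ran from 14.55 to 15.03 in control and from 14.38 to 14.69 in Uba3 cKO libraries, with 2 called in each direction, and the cumulus genes Ptx3 and Tnfaip6 were not kept. Of 7 kept blood and immune markers 2 were called lower, and the summed level ran from 9.14 to 9.40 in control and from 9.01 to 9.14 in Uba3 cKO libraries. Of 6 endothelial markers 1 was called lower, with summed levels of 11.85 to 11.97 and 11.87 to 12.06. Their part in the differences of the synthetase genes was not tested. In such pooled samples, fewer cells of a type and less RNA per cell cannot be told apart.

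The phenylalanyl-tRNA synthetase of the cytosol is built from the products of Farsa (alpha) and Farsb (beta). Farsb (ENSMUSG00000026245, chromosome 1) had log2 values of 11.89, 11.88 and 11.86 in control libraries, and of 11.63, 11.57 and 11.55 with Uba3 cKO. All Uba3 cKO libraries thus lay below all control libraries, and the replicates of each group lay close together. The difference was -0.30 (SE 0.08, 95% interval -0.48 to -0.12), which is 18.5% lower on the linear scale (adjusted p = 0.0457 in limma). The call ended without any single one of the 6 libraries (adjusted p from 0.0633 to 0.146), while the difference stayed between -0.32 and -0.28. It also ended with the replicate number as a block (adjusted p = 0.110) and with no filter on low values (0.0807).

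Farsa, its partner subunit, stood at 10.06, 10.07 and 10.29 in control libraries, and at 10.10, 9.93 and 10.12 with Uba3 cKO. The groups overlapped, and the difference was -0.09 (SE 0.10, adjusted p = 0.658 in limma). Within each library, Farsb exceeded Farsa by 1.74 ± 0.15 (SD, n = 3) on the log2 scale in control libraries, against 1.53 ± 0.10 (SD, n = 3) with Uba3 cKO. An exact two-sided permutation test of this gap gave p = 0.2, where 0.1 is the smallest that 3 against 3 libraries allow. Fars2, the mitochondrial enzyme for the same amino acid, stood at 10.29, 10.43 and 10.34 in control and 10.23, 10.22 and 10.03 in Uba3 cKO libraries. Its groups did not overlap, but its difference of -0.19 (SE 0.10, adjusted p = 0.264 in limma) was not called. No source used here gives the strand setting of the counting, and reads from exon bases that genes of opposite strands share cannot be told apart. Farsb shares 248 exon bases with Sgpp2, which had a mean log2 value of 6.30 and a difference of -0.05.

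Among the other cytosolic genes, the largest difference was a positive one. Aars, the alanyl-tRNA synthetase, stood at 9.32, 9.07 and 9.43 in control libraries, and at 9.50, 9.59 and 9.67 with Uba3 cKO. The groups did not overlap, with control replicate 2 the lowest library. The difference was 0.32 (SE 0.11, 95% interval 0.08 to 0.55), with an adjusted p of 0.101 in limma, so Aars was not called. The part in this difference of the 1326 exon bases shared with Exosc6, for which no values were found, was not tested. Hars, the histidyl-tRNA synthetase, stood at 9.44, 9.61 and 9.43 in control and 9.03, 9.30 and 9.35 in Uba3 cKO libraries. All its Uba3 cKO values were below the control values, and the difference of -0.27 had an adjusted p of 0.167 in limma. Wars, the tryptophanyl-tRNA synthetase, stood at 11.08, 11.34 and 11.26 in control and 11.11, 11.01 and 10.93 in Uba3 cKO libraries, so that the groups overlapped (difference -0.21, adjusted p = 0.226 in limma).

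Iars and Qars, the most abundant synthetases and both above Farsb in level, were not called. Iars stood at 13.50, 13.48 and 13.56 in control and 13.64, 13.50 and 13.54 in Uba3 cKO libraries, with a difference of 0.05 and a 95% interval of -0.12 to 0.21. Qars stood at 12.75, 12.73 and 12.75 in control and 12.82, 12.71 and 12.69 in Uba3 cKO libraries, with a difference of -0.01 and an interval of -0.18 to 0.17. In both genes the groups overlapped. The sign for Qars is not settled, since its difference ran from -0.05 to 0.02 when single libraries were left out. Rars (arginine) had a difference of 0.19 with all Uba3 cKO values above all control values, and Cars (cysteine) had 0.14, again without overlap; neither was called. The remaining cytosolic genes had differences from -0.19, for Gars, to 0.09, for Tars, and none was called. Among these, Sars (serine, -0.08) was the gene whose groups did not overlap, although its lowest control and highest Uba3 cKO library were both 10.91 after rounding.

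**Figure D3:**
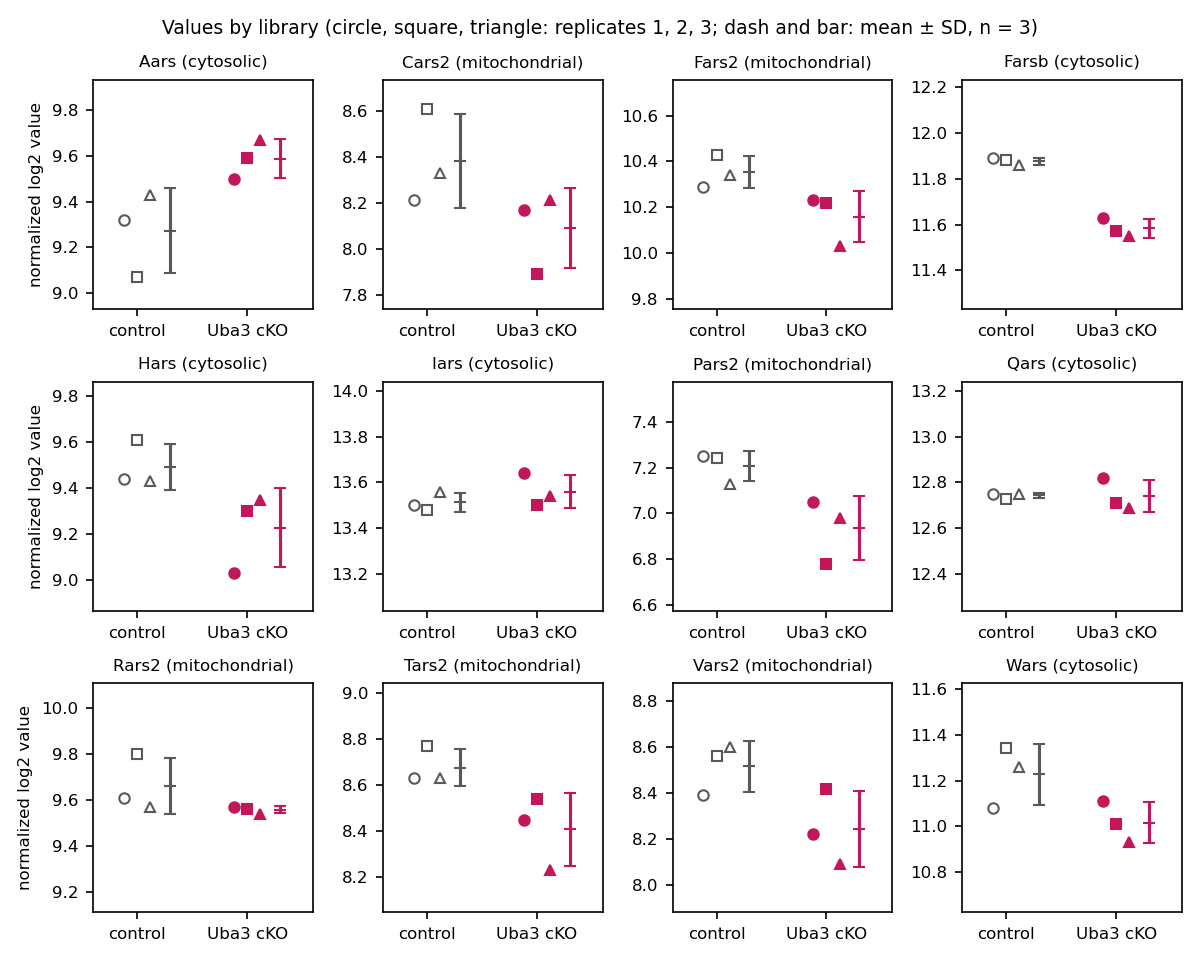
Normalized log2 values of 12 synthetase genes in each library, with control in open grey symbols, Uba3 cKO in filled symbols, replicates 1, 2 and 3 as circle, square and triangle, and mean ± SD (n = 3) beside them. Each panel spans 1 log2 unit; Farsb shows groups that do not overlap, with control at 11.86 to 11.89 and Uba3 cKO at 11.55 to 11.63.

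Within the cytosolic set, 8 genes belong to the multisynthetase complex (Dars, Eprs, Iars, Kars, Lars, Mars, Qars and Rars). Their differences ran from -0.13 for Dars to 0.19 for Rars, with a median of -0.05. None was called, against 8.14% of all kept genes. The 95% interval of each lay within ±0.5, as it did for 85.3% of all kept genes. Eprs, which joins the glutamyl and prolyl enzymes in 1 protein, stood at 12.18 ± 0.01 (SD, n = 3) in control libraries, against 12.12 ± 0.08 (SD, n = 3) with Uba3 cKO. The 12 cytosolic genes outside the complex had a median of -0.06 and ran from -0.30 to 0.32, and Farsb was the gene called. Whether the spread of the 2 sets differed was not tested. By catalytic class, with Eprs, which holds an enzyme of each class, counted in class I, none of 19 class I genes and 1 of 18 class II genes was called, with medians of -0.06 and -0.10.

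No mitochondrial synthetase was called, and at an unadjusted limma p under 0.05 there were 4 of 17 (23.5%, against 22.8% of all kept genes). Cars2, for cysteine, stood at 8.21, 8.61 and 8.33 in control libraries, and at 8.17, 7.89 and 8.21 with Uba3 cKO. Its groups met at 8.21, control replicate 2 was the highest, and the difference of -0.29 (SE 0.13) had an adjusted p of 0.182 in limma. Vars2, for valine, stood at 8.39, 8.56 and 8.60 in control and 8.22, 8.42 and 8.09 in Uba3 cKO libraries. These groups overlapped, with a difference of -0.27 (SE 0.11) and an adjusted p of 0.161 in limma.

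Pars2, for proline, stood at 7.25, 7.24 and 7.13 in control and 7.05, 6.78 and 6.98 in Uba3 cKO libraries, with a difference of -0.27 (adjusted p = 0.122 in limma). Tars2, for threonine, stood at 8.63, 8.77 and 8.63 in control and 8.45, 8.54 and 8.23 in Uba3 cKO libraries, with a difference of -0.27 (adjusted p = 0.157 in limma). In both genes every Uba3 cKO library was below every control library, yet neither passed the threshold. Rars2, the mitochondrial member with the highest level per kilobase, stood at 9.61, 9.80 and 9.57 in control and 9.57, 9.56 and 9.54 in Uba3 cKO libraries, with a difference of -0.10. Its control libraries overlapped those of Fars2 per kilobase, and before division by length Fars2 was higher (mean control log2 10.35 against 9.66). The groups of Rars2 met at 9.57, and control replicate 2 was the highest library. Lars2 (-0.22) and Mars2 (-0.19) were the other mitochondrial genes at or beyond -0.19 beside Fars2. The 3 mitochondrial genes above 0 were Nars2 (0.08), Aars2 (0.07) and Iars2 (0.03).

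Uba3 cKO and control libraries did not overlap for 10 of the 37 genes (27.0%), against 27.9% of all kept genes. Uba3 cKO lay below for 7 genes (18.9%, against 12.8%) and above for 3 (8.11%, against 15.1%). The 7 were Farsb, Hars, Fars2, Mars2, Pars2, Sars and Tars2, and the 3 were Aars, Cars and Rars, all cytosolic. The groups of Sars were apart by less than the rounding of the printed values. The mean deviation of the 17 mitochondrial genes from their average over the 6 libraries was 0.04, 0.09 and 0.05 in control libraries, against -0.05, -0.05 and -0.08 with Uba3 cKO, so that the groups did not overlap. For the 20 cytosolic genes it was 0.04, -0.02 and 0.04 in control and -0.03, 0.00 and -0.03 in Uba3 cKO libraries, which overlapped because of control replicate 2. Such separation was not particular to the mitochondrial genes. The means also did not overlap for the lists of scaffold genes, cytosolic transfer RNA maturation and amino acid response, nor for theca and endothelial markers. They overlapped for the lists of mitochondrial transfer RNA use and selenocysteine, and for oocyte, granulosa and blood markers. No p is given for these means, since the genes were chosen as a set with earlier results of these data known.

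**Figure D4:**
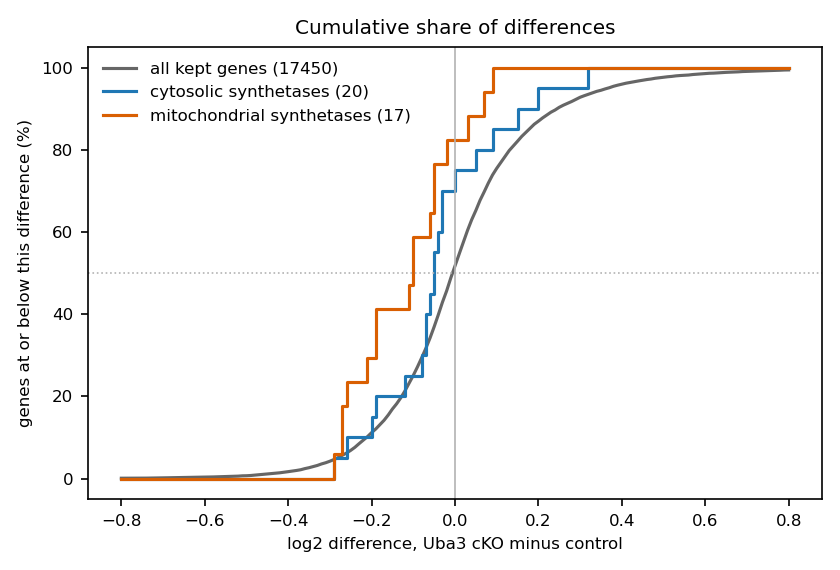
Cumulative share of genes (%) by log2 difference between Uba3 cKO and control, for all 17450 kept genes in grey, 20 cytosolic synthetases in blue and 17 mitochondrial synthetases in orange. At a difference of 0 the share is 51.8% for all kept genes, 75.0% for cytosolic and 82.4% for mitochondrial synthetases.

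Among partners for the same amino acid, the mitochondrial gene had the lower difference in 9 of 16 pairs and the cytosolic gene in 7. The 7 include Eprs with Ears2, which were both at -0.06 after rounding, and Eprs is also paired with Pars2. The cytosolic gene had a positive difference for alanine, cysteine, arginine, threonine and isoleucine, with 0.07, -0.29, -0.10, -0.27 and 0.03 in Aars2, Cars2, Rars2, Tars2 and Iars2. Tryptophan and histidine went the other way, with -0.21 and -0.27 for Wars and Hars against -0.06 and -0.12 for Wars2 and Hars2. None of these gaps was tested. Hars and Hars2 share 195 exon bases on opposite strands. In all, 12 of the 37 genes share exon bases with another gene of the table, including Cars2 (with Naxd, 0.15), Mars (with Ddit3, 0.25) and Iars2 (with Rab3gap2, whose mean log2 value of 13.07 was far above its own).

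The 5 cytosolic genes with the ATF4-type core in their promoter had differences of 0.32 (Aars), 0.09 (Tars), 0.05 (Iars), -0.05 (Yars) and -0.19 (Gars). Their median was 0.05, with 2 below 0. The 8 cytosolic genes with a promoter and no match, Farsb among them, had a median of -0.08, and all 8 were below 0, although Qars and Mars among them changed sign in 5 and 3 of 19 alternative settings. The 7 cytosolic genes with no promoter in the table, which are in neither set, were Cars, Hars, Lars, Nars, Rars, Vars and Wars, and Rars (0.19) and Cars (0.14) were above 0. None of the 5 was called, and the contrast between the 2 sets was not tested. Genes of the amino acid response gave 1 call among the 27 kept of 30 matched. Eif2ak4, the kinase GCN2 that senses uncharged transfer RNA, stood at 11.21 ± 0.05 (SD, n = 3) in control libraries, against 10.84 ± 0.08 (SD, n = 3) with Uba3 cKO. It fell by 0.37 (SE 0.09, adjusted p = 0.0247 in limma). Leaving out any library but control replicate 1 ended this call (adjusted p up to 0.0831). Atf4 had a difference of 0.28 (adjusted p = 0.118 in limma) and overlapped between the groups, and Asns, asparagine synthetase, a textbook target of ATF4, had -0.21 (adjusted p = 0.295 in limma). Other genes of the list went in both directions without a call. In Ddit3 (0.25), Slc3a2 (0.23), Mthfd2 (0.21) and Phgdh (0.13), every Uba3 cKO library lay above every control library, as for 15.1% of all kept genes. Cebpg (-0.30) and Ppp1r15a (-0.20) lay below without overlap, as 12.8% of all kept genes did. Cebpb (-0.52) overlapped, and it and Cebpg each had an adjusted p of 0.0501 in limma. The median of this list was -0.04, with 18 of 27 below 0. Over all kept genes 8.14% were called and 51.8% were below 0.

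Scaffold proteins of the multisynthetase complex were not called. The differences were -0.18 for Aimp1, -0.17 for Aimp2 and -0.16 for Eef1e1, and every Uba3 cKO library lay below every control library for all 3 genes. The same held for 12.8% of all kept genes. With Tarsl2 (0.18), the third threonyl-tRNA synthetase gene, and other relatives, 7 genes of this list were kept, none was called, and 6 were below 0. Over all kept genes 51.8% were below 0. The groups overlapped for Tarsl2 and each other kept relative. Aarsd1, an editing factor related to Aars, was at a mean log2 value of 2.85 in control and was not kept.

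Of 28 kept genes that supply or use mitochondrial aminoacyl-tRNA, 1 rose, none fell and 22 had a difference below 0, with a median of -0.09. Over all kept genes 8.14% were called and 51.8% were below 0, with a median of -0.01. The gene that rose was Trmt10c, a subunit of mitochondrial RNase P (0.39, adjusted p = 0.0459 in limma). Leaving out control replicate 2 or 3, or replicate 1 or 3 of Uba3 cKO, ended this call (adjusted p up to 0.215), as did centring (0.0545), quantile normalization (0.0550), no filter on low values (0.0632), no intensity trend (0.0627), the replicate number as a block (0.0570), and the block with a length and GC correction (0.0519). Qrsl1, Gatb and Gatc, the subunits of the amidotransferase that makes glutaminyl-tRNA in mitochondria, had differences of -0.08, -0.21 and -0.06. Mtfmt, which formylates the initiator methionyl-tRNA, had -0.08. None of the 6 kept genes for selenocysteine was called, and Sepsecs, which makes selenocysteinyl-tRNA, had 0.04, and Sephs2, which makes its selenium donor, had -0.13.

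Genes that process and deliver cytosolic transfer RNA gave calls in both directions, 1 higher and 2 lower among 23 kept. Over all kept genes 8.14% were called, and whether the list differed from that share was not tested. Pop1, a protein of RNase P, which trims the 5′ end of precursor transfer RNA, rose from 10.91 ± 0.02 (SD, n = 3) to 11.27 ± 0.12 (SD, n = 3). The difference was 0.36 (adjusted p = 0.0326 in limma). Pop5, another protein of RNase P, fell by 0.42 (adjusted p = 0.0242 in limma), and Tsen54, a subunit of the splicing endonuclease for transfer RNA, fell by 0.45 (adjusted p = 0.0348 in limma). Each of the 3 calls was lost when control replicate 2 or 3, or replicate 1 or 3 of Uba3 cKO, was left out, and those of Pop5 and Tsen54 also when Uba3 cKO replicate 2 was (adjusted p up to 0.149 for Pop1, 0.0979 for Pop5 and 0.158 for Tsen54). The call of Pop1 ended as well with the replicate number as a block and with no filter on low values, and that of Tsen54 with no intensity trend (adjusted p = 0.0538 in limma) and with a length and GC correction without (0.0562) or with (0.0765) the block. Eef1a1, the elongation factor that carries aminoacyl-tRNA to the ribosome, stood at 16.09 in control, with a difference of -0.10.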

How the data were processed

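RNA from 6 pools of about 150 oocytes, 3 per genotype, was extracted with PicoPure and sequenced on a NovaSeq after TruSeq library preparation, per the labels' protocols. Build GRCm39 and the tools featureCounts, fastp, DESeq2 and STAR are listed, with no versions, per the submitters' processing notes. The table deposited by the authors holds normalized log2 values for 28738 genes, from 0.0363 to 18.01 with no exact 0. The transform is not named, and its shape is that of a regularized logarithm, which draws low genes towards their mean and so can understate their differences. Depth per library is unknown, and no counts were used. Symbols, transcript lengths and exon overlaps came from GENCODE M21 on GRCm38, an earlier build than that of the files. Of the gene IDs, 27660 had a symbol. Sequence around a further promoter match is not reported here.

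Genes with a linear value of 10 or more in at least 3 libraries were kept, and limma 3.58.1 with an intensity trend (R 4.3.3) was fitted to the 6 libraries with no covariate and no pseudocount. The script was tested on simulated data. Values in every library are given for called synthetases and, in each compartment, for the 4 with the largest absolute difference and the 2 with the highest level per kilobase; companion lists are given by their called genes and, where there was none, their 2 most abundant. Farsa, the scaffold and amidotransferase genes and Atf4, Asns and Eef1a1 were added for their roles after their values were seen. So were Mtfmt, Tarsl2, Aarsd1 and the other uncalled amino acid response genes named here. The promoter search and the split of cytosolic genes by it were not planned in advance. The members and lists were chosen with earlier results of these data known. Other filters, added constants, scalings, variance models, library weights, a length and GC correction, a replicate block and leaving out each library were tried.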

Additional observations from a re-analysis of the deposited data

How the results depend on the processing

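The count of synthetase genes called, 1 in the reported fit, was 0 with no filter on low values, with the replicate block, with the length and GC correction with replicate block, and without any single library (0 to 0). Farsb was called in 10 of 19 alternatives and no other synthetase in any. The median differences of cytosolic and mitochondrial synthetases kept their sign in all 19, although their order reversed without control replicate 2. When single libraries were left out they ran from -0.09 to -0.03 and from -0.15 to -0.08. Genes called over all kept genes, 1421, were 2298 with array weights, 1258 with the replicate block, and 618 (without control replicate 3) to 1637 (without control replicate 1) when single libraries were left out. The causes were not tested.

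Differences near 0 changed sign. With array weights Mars was 0.01 and Qars 0.02. With the length and GC correction, with or without the replicate block, Iars2 was -0.02, Qars 0.01, Sars2 0.02 and Vars 0.04. Without single libraries the differences ran from -0.16 to 0.06 for Mars, -0.14 to 0.06 for Vars, -0.15 to 0.04 for Yars, -0.05 to 0.02 for Qars, 0.00 to 0.11 for Aars2, -0.04 to 0.10 for Iars2, -0.15 to 0.01 for Wars2 and -0.05 to 0.02 for Yars2. The ratio of cytosolic to mitochondrial median level was 5.97 with all-exon length and 5.12 undivided, both chosen after seeing the data.

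Deviations of libraries with the same replicate number correlated at -0.09, -0.20 and -0.05 across kept genes, and no library correlated best with its own number. These values gave no sign that the numbers pair the libraries. With so few libraries they cannot exclude a pairing, and the labels give replicate numbers only. The depth behind the deposited values is unknown.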
